A study of Mus musculus with 3 samples.

Results

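Among 25906 genes counted in sorted mouse NK cells, 45 genes of the cell cycle and DNA replication were picked by gene symbol, and all were present in the files. Of these, 17 act in DNA replication (the helicase genes Mcm2 to Mcm7, their loader Cdc6 and partners Cdc45 and Gins2, the sliding clamp Pcna with its binding partner Pclaf, Uhrf1, and the nucleotide synthesis genes Rrm1, Rrm2, Tyms, Tk1 and Dut), 26 act in mitosis or peak near it, and 2, Stmn1 and Hmgb2, were kept apart. Lungs and blood came from wild-type female mice of 9 weeks, and live cells positive for NK1.1 and NKp46 were sorted from both. The mice were naive or had received 100000 PyMT mammary tumor cells intravenously 6 h or 14 days before sacrifice. Each time point was 1 droplet library that held both tissues, told apart by a hashtag antibody, so 3 libraries gave 6 groups. The labels do not tell the mice of a library apart, and time point and library cannot be told apart either. Time points could not be tested against each other since none had a replicate library, while lung and blood could be compared over the 3 libraries. The 95% intervals given here cover counting error only. Those of levels and ratios count UMIs and do not cover differences between cells or between mice.

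Before a cell divides it loads the Mcm2 to Mcm7 ring on DNA, and the ring unwinds DNA in S phase once Cdc45 and the Gins complex join it. The genes of mitosis follow later, when cyclins and Cdk1 drive the cell into division, the kinetochore and spindle form, and the anaphase-promoting complex with Cdc20 and Ube2c ends the phase. Most mature NK cells in blood and lung rest, and they divide during their development or in response to cytokines.

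The groups held 2069 to 4680 cells each, 21113 in all, with 16936897 to 35922737 unique molecular identifiers (UMIs, counted transcript molecules) per group and medians of 5909.5 to 7524 UMIs per cell. The libraries shared 16, 11 and 7 cell barcodes in pairs. The 8 NK cell markers summed to 15596 to 22982 CPM (UMIs scaled to the same total in every group), and the B cell markers to 0.852 to 1.59 CPM. Erythroid markers stood at 90.002 CPM in 14-day lung and at 1.48 to 2.57 CPM elsewhere. In 14-day lung Hbb-bs gave 50.7 CPM of this sum, from 0.0559% of the cells. Epithelial and tumor cell markers stood at 6.71 CPM in 14-day lung and at 0.498 to 1.48 CPM elsewhere. Cdh1 gave 4.79 CPM of the 14-day lung value, while Krt8 and Krt19 had 1 and 0 UMIs there. Myeloid markers were highest in 14-day blood, at 91.0 CPM, of which Lyz2 gave 89.3 CPM, and T cell markers ranged from 187 to 294 CPM. Free RNA could give at most 1.17% to 4.93% of the UMIs of a group.

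Many cell cycle promoters carry CCAAT boxes, which bind NF-Y, together with E2F sites in many replication genes or the CHR element in many mitosis genes. RefSeq promoters (GRCm38.p6) were found for 38 of the 45 genes, all but Mcm4, Gins2, Ccna2, Aurkb, Tpx2, Kif20a and Stmn1, and motifs were searched on both strands of the 250 bases before the start. CCAAT was in 20 of 22 mitosis promoters (90.9%) and 11 of 15 replication promoters (73.3%), beside 37.5% of the promoters of all 27025 genes. An E2F core (the letters TTCCCGC, the letters TTGGCGC, the letters TTCGCGC or the letters TTGCCGC) was in 7 of 15 replication promoters (46.7%), 4 of 22 mitosis promoters (18.2%) and 9.01% of all promoters. The CHR (TTTGAA or TTCGAA) was in 9 of 22 mitosis promoters (40.9%), 3 of 15 replication promoters and 19.6% of all promoters. Shown here are the last 150 bases before the start, along the strand of the gene, for Cenpa and Kif23, the genes past 2-fold between lung and blood described below, for Ccnb2, whose 3 CCAAT boxes begin 87, 54 and 21 bases before the start, and for Mcm6, which holds both kinds of motif. Capitals mark CCAAT on either strand (ATTGG is CCAAT on the other strand) and, in Mcm6, also the E2F cores, which overlap in pairs. The stretches lie at chr5:30666736-30666885 on the plus strand (Cenpa), and on the minus strand at chr9:61946800-61946949 (Kif23), chr9:70421555-70421704 (Ccnb2) and chr1:128359706-128359855 (Mcm6). The start is that of RefSeq, and for Cenpa it lies downstream of the gene start in the GENCODE annotation used for gene positions, so most of the Cenpa stretch is inside the gene by that annotation.
Cenpa: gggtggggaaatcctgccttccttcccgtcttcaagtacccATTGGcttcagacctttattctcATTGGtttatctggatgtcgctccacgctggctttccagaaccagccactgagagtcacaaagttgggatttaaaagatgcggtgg
Kif23: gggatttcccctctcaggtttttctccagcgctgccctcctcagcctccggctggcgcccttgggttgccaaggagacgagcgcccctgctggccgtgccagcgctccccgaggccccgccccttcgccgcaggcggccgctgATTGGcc
Ccnb2: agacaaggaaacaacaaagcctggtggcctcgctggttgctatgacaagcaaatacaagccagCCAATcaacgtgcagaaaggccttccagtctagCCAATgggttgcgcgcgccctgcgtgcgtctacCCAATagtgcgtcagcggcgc
Mcm6: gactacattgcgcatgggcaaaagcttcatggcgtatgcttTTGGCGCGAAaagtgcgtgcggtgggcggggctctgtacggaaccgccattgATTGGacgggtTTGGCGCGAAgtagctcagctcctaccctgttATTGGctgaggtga

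Levels were low for most of the genes. Of the 45, 19 reached a mean of 5 CPM over the groups: 12 of 17 replication genes, 5 of 26 mitosis genes (Cenpa, Top2a, Mki67, Kif23 and Prc1), and both Stmn1 and Hmgb2. Pcna ranged from 81.7 CPM in 14-day lung to 109 CPM in 6 h lung, and 41.7% to 49.1% of the cells of a group had a UMI of it, or 21.5% to 26.4% once each cell was thinned to 3000 UMIs. Mcm6 was found in 32.7% to 38.2% of cells, or 15.7% to 21.8% thinned. Transcripts of Pcna and Mcm6, the replication genes of the highest mean levels, were thus present in a large share of cells in every group. Between 13.5% and 17.5% of the cells of a group had none of the 17 replication genes. Thinned, this was 37.4% in naive lung and 39.6% in naive blood. Mki67, the gene of the proliferation antigen Ki-67, was found in 2.26% to 3.91% of cells, or 0.917% to 1.63% thinned, and did not exceed 9.27 CPM. The lowest values were those of Hmmr among the mitosis genes (0.236 CPM) and Cdc6 among the replication genes (0.497 CPM in 14-day lung).

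**Figure D1:**
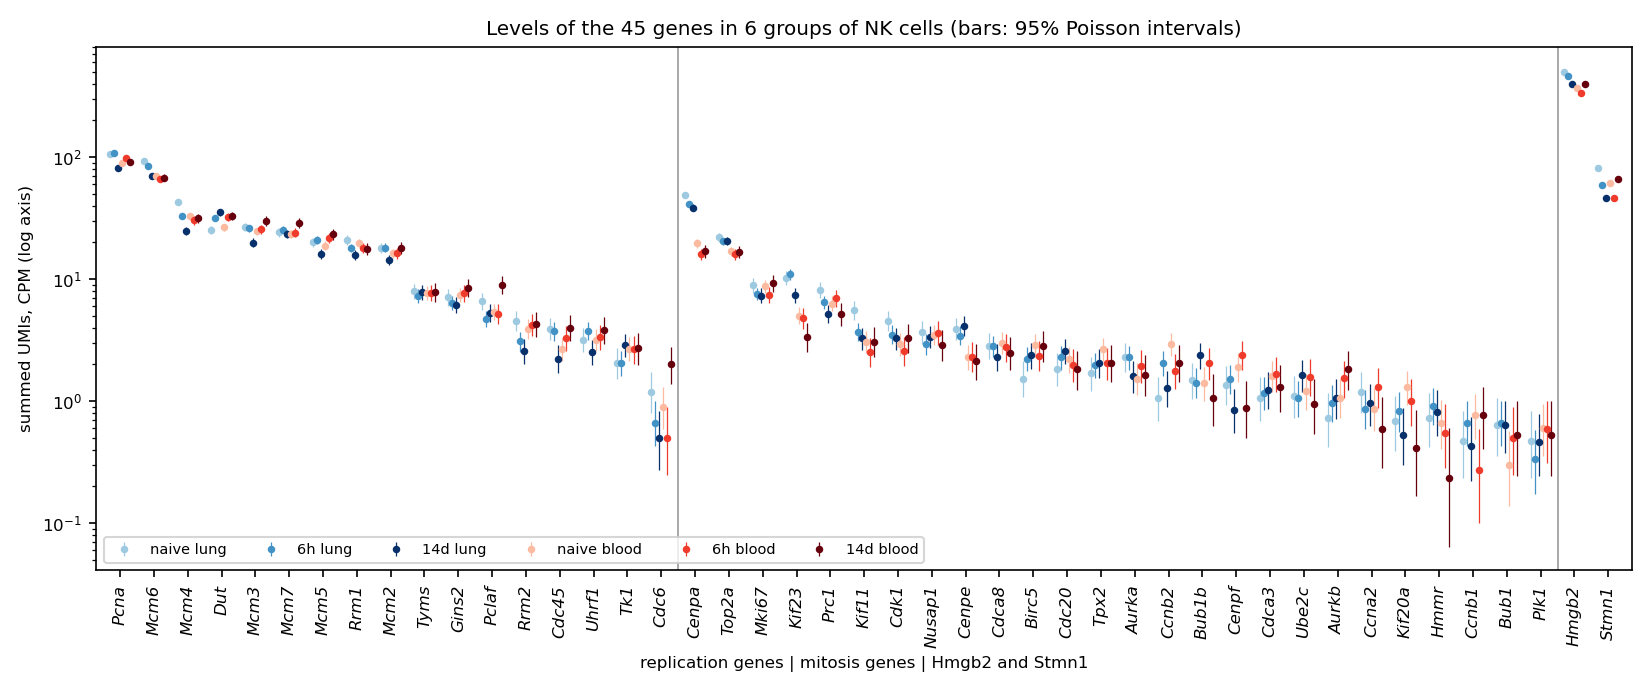
Summed level of each of the 45 genes (CPM, log axis) in the 6 groups. Points are single groups and bars are 95% Poisson intervals. Cenpa and Kif23 show the 3 lung points above the 3 blood points, as do some others such as Top2a and Mcm6, and Gins2 shows the reverse. The share of all genes separated in this way was not computed. For Mcm4 14-day lung is the lowest group, at 24.98 CPM.

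The first question was how NK cells of the lung differed from those of the blood of the same library. Lungs were dissociated with collagenase while blood was not, so tissue and handling cannot be told apart. A difference of 2-fold was used as a fixed size. Of the 19 genes above the minimum, 2 were past it in each library, Cenpa and Kif23, both higher in lung. Kif23 was no longer past it in naive mice with no upper limit of genes per cell (0.91) and at 14 days in thinned cells (0.95). Of all 9115 genes with a mean of at least 5 CPM, 3.73% were past this size in naive, 3.37% at 6 h and 3.12% at 14 days, in either direction. Higher in lung were 3.04%, 2.82% and 2.56%, lower in lung 0.691%, 0.549% and 0.56%, and 1.51% were higher in lung in all 3 libraries. Over the 3 libraries together, edgeR's quasi-likelihood test of tissue with the library as a replicate block, added after the data were seen, called 5 of the 19 genes at an adjusted p of 0.05, all higher in lung, beside 13.5% higher and 8.8% lower of all genes. They were Cenpa (log2 of 1.39, adjusted p = 0.00078), Kif23 (log2 of 1.20, adjusted p = 0.0033), Top2a (log2 of 0.44, adjusted p = 0.011), Mcm6 (log2 of 0.36, adjusted p = 0.024) and Hmgb2 (log2 of 0.40, adjusted p = 0.048), each by edgeR. Without the naive or the 6 h library the calls were 2, Cenpa and Kif23, and without the 14-day library they were 11. All were higher in lung. Of all 9115 genes, 473, 494 and 2759 were called higher in lung without the naive, 6 h and 14-day library. Without the 14-day library 2345 were also called lower. Calls thus rose among all genes there, and the 11 are not read as a result about these genes. The test over all 3 libraries has 2 residual degrees of freedom, and the libraries are 3 different time points.

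Summed over the 26 mitosis genes, lung stood at 137, 125 and 116 CPM in naive, 6 h and 14-day mice, and blood at 95.4, 88.7 and 84.8 CPM. Lung was above blood in each library, with log2 ratios of 0.53 (0.45 to 0.60), 0.49 (0.41 to 0.57) and 0.46 (0.37 to 0.55). The median log2 ratio of all 9115 genes was -0.10, -0.10 and -0.11, and relative to it the mitosis sums were 0.62, 0.59 and 0.56 higher in lung.

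Cenpa, which encodes the histone H3 variant that marks centromeres (chromosome 5, 30666777 to 30674830, GRCm38), contributed most. It stood at 49.0 CPM (46.2 to 51.9) in naive lung, 41.6 CPM (39.6 to 43.8) in 6 h lung and 38.6 CPM (36.4 to 41.0) in 14-day lung. In blood it stood at 19.7 CPM (18.1 to 21.3) in naive mice, 16.0 CPM (14.4 to 17.8) at 6 h and 16.9 CPM (15.0 to 19.0) at 14 days. The lung and blood groups did not overlap, and the log2 ratios were 1.32 (1.17 to 1.46), 1.38 (1.21 to 1.55) and 1.19 (1.00 to 1.39). Lung and blood values were also separated for Top2a and, by little (70.55 CPM in 14-day lung and 70.25 CPM in naive blood), for Mcm6. Some other genes were separated too, and Gins2 was in the opposite order. The share of all genes separated in this way was not computed. A Cenpa UMI was found in 21.6%, 22.0% and 20.8% of lung cells and in 11.2%, 10.7% and 11.3% of blood cells, in the order naive, 6 h and 14 days. In thinned cells the shares were 12.3%, 10.4% and 9.53% in lung and 4.92%, 4.40% and 4.36% in blood, so the difference was present at equal depth. Free RNA could give at most 4.17%, 4.89% and 1.22% of the Cenpa UMIs in lung and 7.79%, 11.5% and 4.33% in blood.

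Kif23, which encodes a kinesin of the central spindle (chromosome 9, 61915905 to 61946774), stood at 10.2, 10.97 and 7.38 CPM in naive, 6 h and 14-day lung and at 5.04, 4.80 and 3.37 CPM in the matched blood. As with Cenpa and some others of the 45 genes, each lung value was above each blood value. For Kif23, too, the share of all genes with such an order was not computed. The log2 ratios were 1.02 (0.72 to 1.33), 1.19 (0.88 to 1.52) and 1.13 (0.70 to 1.58). Top2a, the topoisomerase gene needed to untangle chromosomes, had ratios of 0.39, 0.35 and 0.30, and Cenpe, which encodes a kinetochore motor and had 36 to 124 UMIs a group, of 0.77, 0.58 and 0.97. These 4 were the genes of the 45 whose interval lay above 0 in all 3 libraries, and none lay below 0 in all 3. Of the 19 above the minimum these were 3 and 0, beside 10.2% and 24.9% of all genes. The other mitosis genes shared no direction. In naive mice the cyclin gene Ccnb2 was lower in lung, at 1.07 CPM against 2.94 CPM in blood (log2 of -1.46, -2.17 to -0.81), as were Birc5, Tpx2 and Kif20a, but the intervals of all 4 held 0 at 6 h and at 14 days. Cells with at least 5 other mitosis genes held 67.3% of the Ccnb2 UMIs and 78.6% of the Birc5 UMIs over all groups. The ratios of Ccnb2 and Birc5 thus rest largely on few cells, whose sampling the intervals do not cover.

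Without Cenpa the summed mitosis ratios were 0.22 (0.14 to 0.31), 0.19 (0.11 to 0.28) and 0.19 (0.090 to 0.30). Without Cenpa, Kif23 and Top2a, left out after their values were seen, lung stood at 56.0, 51.7 and 49.8 CPM and blood at 53.8, 51.8 and 47.9 CPM, with ratios of 0.059 (-0.048 to 0.16), -0.0034 (-0.11 to 0.10) and 0.055 (-0.070 to 0.18). On the CPM scale each interval of the remaining 23 genes thus ran from a negative to a positive value. Since the genes left out were chosen for their high ratios, this describes the remainder and is not a test. These ratios are not set relative to the median of all genes, which was negative in each library. Without cells that held 2 or more UMIs of markers of other cell types, the sums of all 26 gave 0.48, 0.22 and 0.17, and Cenpa gave 1.29, 1.19 and 1.17. This filter left out 33.8% to 49.3% of the cells of a group. It counts the T cell marker Trbc2 and the endothelial marker Pecam1, found in 36.2% to 46.1% and 20.8% to 31.7% of cells. Whether the cells left out were of other types was not tested. Myeloid markers were lower in lung than in blood of the same library, at 13.9, 27.7 and 15.5 CPM against 24.2, 48.6 and 91.0 CPM, and their part in the mitosis sums beyond this filter was not tested.

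**Figure D2:**
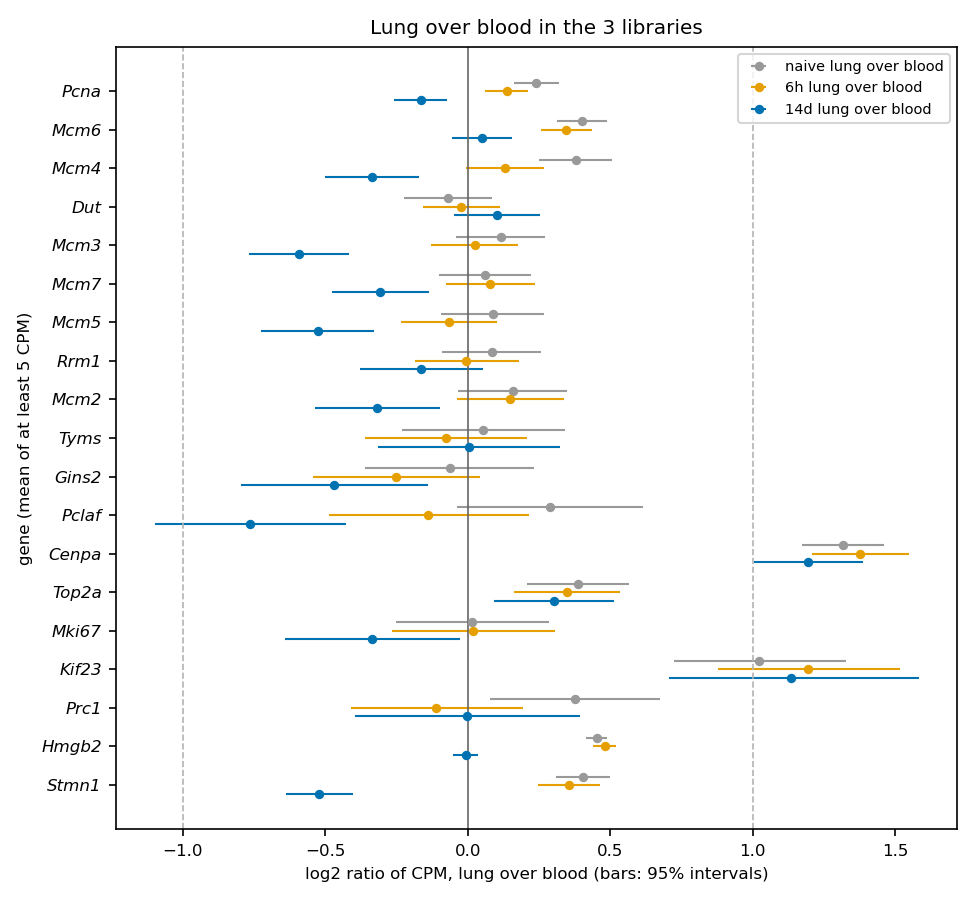
Log2 ratio of CPM, lung over blood, for the 19 genes with a mean of at least 5 CPM in the naive, 6 h and 14-day libraries. Points are single libraries, bars are 95% intervals for counting error and dashed lines mark 2-fold. Cenpa (1.32, 1.38 and 1.19) and Kif23 (1.02, 1.19 and 1.13) lie past 2-fold in all 3 libraries, which for Kif23 depended on the cell limits and depth (0.91 in naive mice with no upper limit of genes per cell).

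The 17 replication genes gave another pattern. Their sum was 413, 399 and 332 CPM in naive, 6 h and 14-day lung and 356, 369 and 384 CPM in the matched blood. Lung was above blood in naive mice (log2 of 0.22, 0.18 to 0.26) and at 6 h (0.11, 0.073 to 0.15), and below it at 14 days (-0.21, -0.26 to -0.16, or -0.10 relative to the median of all genes). At 14 days 8 of the 12 replication genes above the minimum had an interval below 0 and 0 above, beside 42.2% and 18.1% of all genes. In naive mice 0 lay below and 3 above (Mcm4, Mcm6 and Pcna), beside 45.5% and 21.2%. Mcm4, Cdc45 and Pcna had intervals above 0 in naive mice and below 0 at 14 days. Cdc45 was below the minimum, and the share of all genes with such a change was not computed. The helicase gene Mcm3 stood at 19.9 CPM in 14-day lung and 30.1 CPM in 14-day blood (log2 of -0.59, -0.77 to -0.42), and Pclaf at 5.29 and 8.97 CPM (-0.76, -1.10 to -0.43). Mcm6 was higher in lung in naive mice (0.40) and at 6 h (0.35), and at 14 days its interval held 0.

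The next comparison set 14 days after tumor cell injection against naive mice, within each tissue. Of the 19 genes above the minimum, 0 were past 2-fold in lung and 0 in blood, beside 3.21% and 0.406% of all genes (1.45% higher and 1.77% lower in lung, 0.197% higher and 0.208% lower in blood). Below that size, the replication sum was lower in 14-day than in naive lung, with a log2 ratio of -0.31 (-0.36 to -0.27). The median of all genes was -0.18, the ratio relative to it -0.14, and with TMM scaling it was -0.12. In blood the replication ratio was 0.11 (0.067 to 0.16), or 0.26 relative to a median of -0.15, but it was -0.035 without cells that held markers of other cell types and -0.025 in thinned cells. The few cells with at least 5 mitosis genes, described below, held 14.5% of the replication UMIs in 14-day blood and 7.46% in naive blood. The blood ratio without these cells is not given, so the rise is not read as one of most cells. In lung 7 of the 12 replication genes above the minimum had an interval below 0 and 1 above, beside 52.3% and 18.2% of all genes, so their count in lung was near that of all genes. In blood 0 lay below and 5 above, beside 47.2% and 15.2%.

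Mcm4, a subunit gene of the replicative helicase (chromosome 16, 15623897 to 15637400), had the lowest ratio in lung among the replication genes above the minimum. It stood at 43.0 CPM (40.3 to 45.7) in naive lung, 33.2 CPM (31.3 to 35.1) in 6 h lung and 24.98 CPM (23.2 to 26.9) in 14-day lung. In blood it stood at 33.0 CPM (31.0 to 35.1) in naive mice, 30.3 CPM (28.0 to 32.7) at 6 h and 31.5 CPM (28.9 to 34.3) at 14 days. Naive lung was above and 14-day lung below every other group, and the blood intervals overlapped. The share of all genes with this order of groups was not computed, so the order is not read as particular to Mcm4. The log2 ratio of 14-day over naive was -0.78 (-0.92 to -0.64) in lung, or -0.61 against the median of the genes tested, and -0.067 (-0.22 to 0.086) in blood. Over the alternatives tried the lung value ran from -0.84 to -0.58. A Mcm4 UMI was found in 20.9% of naive and 15.7% of 14-day lung cells, or 10.9% and 6.81% thinned.

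For the other helicase genes the 14-day over naive ratios in lung were -0.33 for Mcm2, -0.42 for Mcm3, -0.31 for Mcm5, -0.39 for Mcm6 and -0.054 for Mcm7. In blood the same genes gave 0.15, 0.29, 0.31, -0.044 and 0.31. Pcna gave -0.37 (-0.45 to -0.29) in lung and 0.036 (-0.055 to 0.13) in blood. Dut, whose product clears dUTP from the nucleotide pool, went the other way in lung, from 25.3 CPM in naive mice to 32.0 CPM at 6 h and 35.4 CPM at 14 days, and stood at 26.6, 32.5 and 33.0 CPM in blood. It was the 1 replication gene whose interval lay above 0 in all 4 comparisons with naive mice, with ratios of 0.34 and 0.48 in lung and 0.29 and 0.31 in blood. Within a tissue both ratios share the naive group, and the share of all genes above 0 in all 4 was not computed. Pclaf was higher in 14-day blood (0.73, 0.40 to 1.06) and had -0.32 in lung. Over all groups 79.2% of the Pclaf UMIs lay in 94 cells, those with at least 5 mitosis genes. Its intervals do not cover the sampling of these few cells, so its ratios are not read as differences between groups.

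The mitosis sum at 14 days was -0.24 (-0.31 to -0.17) in lung and -0.17 (-0.26 to -0.077) in blood, near the median of all genes (-0.064 and -0.021 relative to it). In lung Prc1, needed for the central spindle, gave -0.66, Kif11, a spindle motor gene, -0.76, Kif23 -0.47 and Cenpa -0.34. The checkpoint kinase gene Bub1b (0.67) and Birc5 (0.63), with 35 to 67 UMIs in these 2 groups, were higher in 14-day lung. Erythroid and epithelial markers were highest in 14-day lung, as given above. Without cells that held 2 or more UMIs of other cell types' markers, the mitosis ratio in lung was -0.50, the replication ratio -0.33 and that of Mcm4 -0.84.

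**Figure D3:**
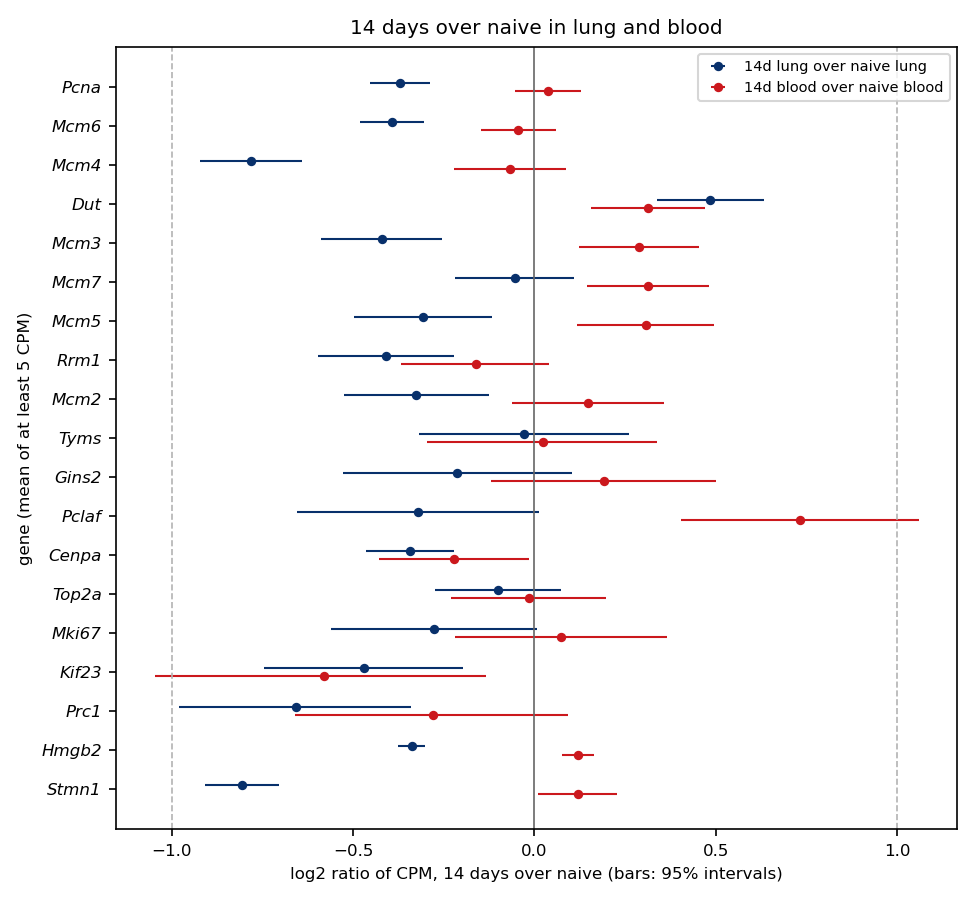
Log2 ratio of CPM, 14 days over naive, in lung and in blood for the 19 genes with a mean of at least 5 CPM. Points compare 2 libraries, bars are 95% intervals for counting error and dashed lines mark 2-fold. In lung Mcm4 (-0.78) and Stmn1 (-0.81) lie farthest below 0, and Dut lies above 0 in both tissues.

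At 6 h, 0 of the 19 genes were past 2-fold in lung and 0 in blood, beside 0.154% and 0.132% of all genes (0.143% higher and 0.011% lower in lung, 0.11% higher and 0.0219% lower in blood). The replication sum was -0.051 (-0.088 to -0.014) in lung and 0.053 (0.011 to 0.094) in blood, and the mitosis sum -0.14 and -0.11. The median of all genes was also below 0 in both tissues, and these sums are not set relative to it. With TMM factors the replication sum in lung turned direction, as given below. Among the replication genes above the minimum Pclaf (-0.48) and Mcm4 (-0.37) had the lowest ratios in lung.

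Stmn1 encodes a destabiliser of microtubules and Hmgb2 a chromatin protein, and neither is limited to dividing cells. Stmn1 stood at 80.8, 59.0 and 46.2 CPM in naive, 6 h and 14-day lung and at 61.0, 46.2 and 66.3 CPM in the matched blood. It was lower at 6 h in both tissues (-0.45 and -0.40), and at 14 days lower in lung (-0.81, -0.91 to -0.70) but not in blood (0.12, 0.011 to 0.23). Hmgb2 stood at 502, 464 and 397 CPM in lung and at 367, 333 and 399 CPM in blood. Both were higher in lung than in blood in naive mice (0.40 and 0.45) and at 6 h (0.36 and 0.48). At 14 days Stmn1 was lower in lung (-0.52), and the Hmgb2 interval held 0 (-0.0069, -0.051 to 0.037).

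To see how many cells carried a mitosis program, the mitosis genes with a UMI were counted per cell. Between 58.5% and 68.5% of the cells of a group had none of the 26. Cells with at least 5, called mitosis-high here, numbered 16 of 3676 in naive lung, 25 of 4680 in 6 h lung and 13 of 3575 in 14-day lung (0.435%, 0.534% and 0.364%). In blood there were 17 of 4367 in naive mice, 7 of 2746 at 6 h and 16 of 2069 at 14 days (0.389%, 0.255% and 0.773%). In all, 94 of 21113 cells (0.445%, 0.360% to 0.545%) were mitosis-high, and the exact binomial intervals of the 6 groups overlapped. Thinned to 3000 UMIs the shares were 0.139%, 0.194% and 0.198% in lung and 0.233%, 0.183% and 0.291% in blood. Mitosis-high is a range and not a cell type, since 4 to 17 cells a group had exactly 4 of the genes and 0 to 6 had exactly 5.

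Replication-high cells, with at least 5 of the 17 replication genes, made up 3.999%, 5.28% and 4.34% of lung cells and 3.78%, 6.08% and 6.33% of blood cells. Thinned, the shares were 1.09%, 0.797% and 0.509% in lung and 0.582%, 0.880% and 1.36% in blood, in another order of groups, so no order is read from them. Of the 94 mitosis-high cells, 82 were also replication-high. Mitosis-high cells had medians of 14294 to 20597 UMIs a group, against 5890 to 7502 in the other cells. Barcodes without a single tag, which were left out, held 5 mitosis-high ones among 641 (0.780%), and whether mitosis-high droplets held 2 cells of 1 tissue was not tested. A UMI of Ncr1 or Klrb1c, the genes of the proteins used in the sort, was found in 93 of the 94. B cell and fibroblast markers were at 0 in them, and 4 mitosis-high cells of 14-day lung held 29 UMIs of myeloid markers.

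**Figure D4:**
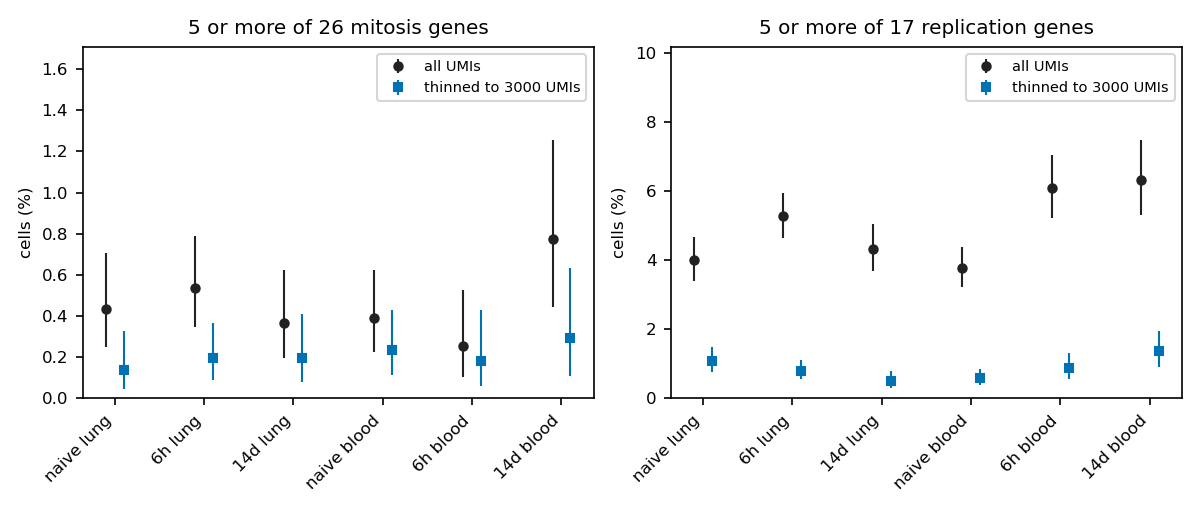
Share of cells (%) with at least 5 of the 26 mitosis genes and with at least 5 of the 17 replication genes in each group, with all UMIs and with each cell thinned to 3000 UMIs. Bars are exact 95% binomial intervals. Mitosis-high cells stay at or below 0.773% in every group, and replication-high cells lie between 3.78% and 6.33%, or 0.509% and 1.36% when thinned.

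These few cells held 0.578% to 1.64% of all UMIs of a group, 21.5% to 33.2% of its mitosis UMIs and 6.15% to 14.5% of its replication UMIs. So that no gene counted towards its own class, the UMIs of each gene were placed by the other mitosis genes of the cell. Cells with at least 5 other mitosis genes held 88.7% of the UMIs of the cyclin gene Ccna2, 81.7% of Hmmr, 78.6% of Birc5 and 49.8% of Mki67. Of the mitosis genes, 10 of 26 had at least 50% of their UMIs there, and of the replication genes 1 of 17, Pclaf (79.2%). At the other end stood Aurka (3.36%), Cenpa (3.71%), Mcm6 (3.80%), Mcm4 (4.55%) and Pcna (5.44%). Under 10% lay there for 9 of 17 replication genes and for 2 of 26 mitosis genes, Aurka and Cenpa.

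**Figure D5:**
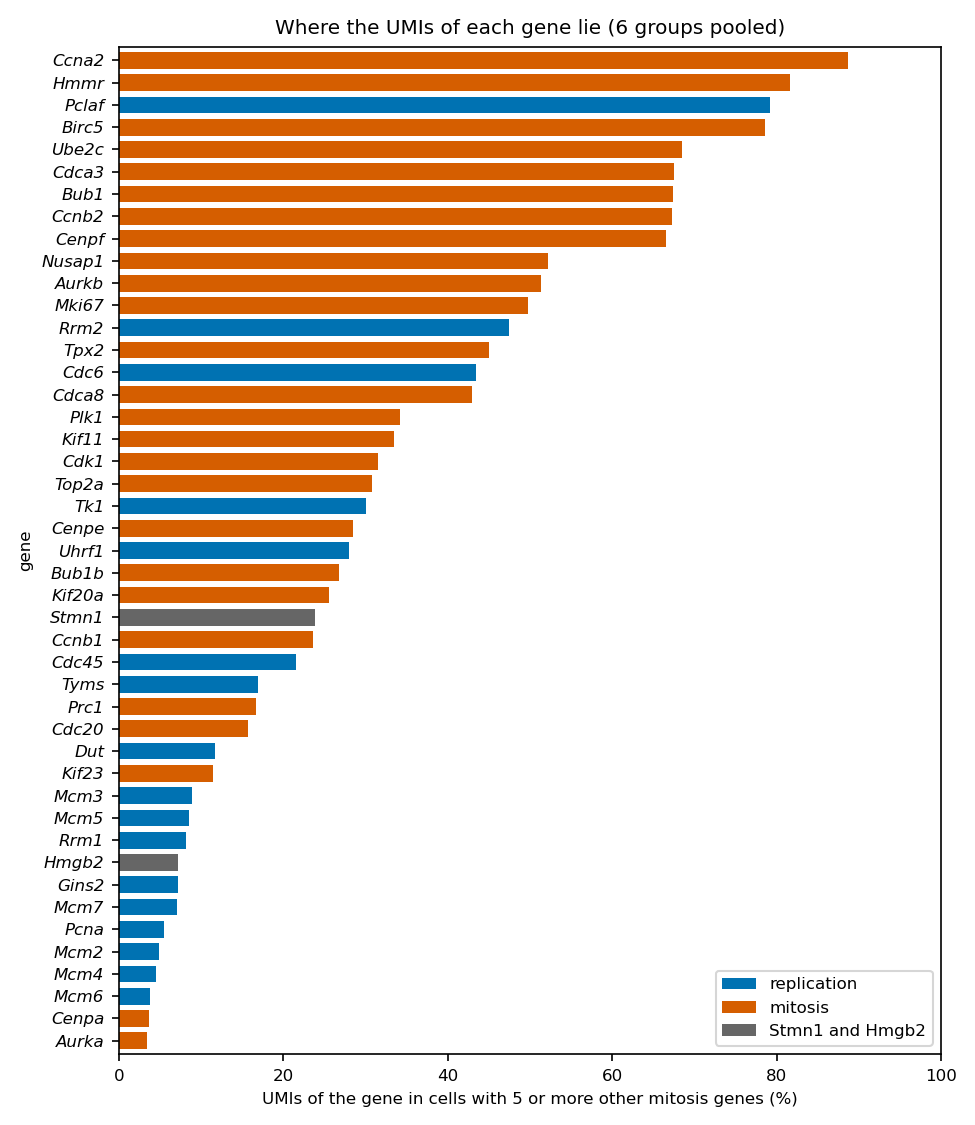
Share (%) of the UMIs of each gene that lay in cells with at least 5 other mitosis genes, over the 6 groups together. Aurka (3.36%) and Cenpa (3.71%) lie with the Mcm genes and Pcna at the low end, and Ccna2 (88.7%) is the highest.

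The lung to blood differences of Cenpa, Kif23, Top2a and the mitosis sum were present outside the mitosis-high cells. The replication sum outside them is not given. Mitosis-high cells held 7.06% of the replication UMIs in 14-day lung and 14.5% in 14-day blood, so its difference at 14 days may be of another size there. There Cenpa stood at 48.6, 40.2 and 37.6 CPM in lung and 18.4, 15.4 and 16.9 CPM in blood, with log2 ratios of 1.40, 1.38 and 1.16. Kif23 gave 1.11, 1.29 and 1.38, Top2a 0.43, 0.39 and 0.56 and the mitosis sum 0.73, 0.64 and 0.58. For 14-day over naive lung, Mcm4 gave -0.78 and Stmn1 -0.99 outside these cells.

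Levels inside mitosis-high cells are a description, since the class was cut from the same counts. All 17 replication genes and 24 of 26 mitosis genes were higher inside than outside in all 6 groups, the exceptions being Aurka and Kif20a. The share of all genes higher inside in all 6 groups was not computed, for this count or those of the further genes below. Among replication genes the pooled log2 ratio ran from 2.04 for Mcm6 (304.2 CPM inside and 74.0 CPM outside) to 8.63 for Pclaf (479 CPM inside and 1.21 CPM outside). Of 32 further replication genes 31 were higher inside in all 6 groups, and of 38 further mitosis genes 35, while the securin gene Pttg1 stood at 30.8 CPM inside and 45.9 CPM outside (log2 of -0.58, -1.03 to -0.16). Of the genes of NK maturation, Itgam, the gene of CD11b, stood at 122 CPM inside and 277 CPM outside (-1.18, -1.40 to -0.97) and Zeb2 at 696 CPM inside and 1244 CPM outside (-0.84, -0.93 to -0.75). Cd27 gave -0.30, -0.65 to 0.033, Emb -0.30, Klrg1 -0.14, Cx3cr1 -0.0023, Pmepa1 -0.82, Itga1 -1.32 and Kit -2.13, and Il7r had 1 UMI inside. The granzyme gene Gzma stood at 10818 CPM inside and 11252 CPM outside, and Ncr1 at 801 CPM inside and 1127 CPM outside.

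Cells were also split by UMIs of Cd27 and Itgam, the genes of surface proteins that stage NK cells, after thinning to 3000 UMIs. Mitosis-high cells made up 4 of 1645 cells with Cd27 only (0.243%, 0.0663% to 0.621%), 2 of 1110 cells with both (0.180%, 0.0218% to 0.649%), 8 of 9647 cells with Itgam only (0.0829%, 0.0358% to 0.163%) and 28 of 8446 cells with neither (0.332%, 0.2204% to 0.479%). In these pooled counts the interval for Itgam only lay below that for neither, but within every single group these intervals overlapped. The other pooled intervals overlapped. Replication-high shares were 0.547%, 0.450%, 0.622% and 1.15% in the same order. A cell without a UMI may still express the gene, and these classes pool the 6 groups.

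Further genes of the 2 processes were taken from fixed lists. Of 27 further replication genes above the minimum, 1 was past 2-fold in 14-day over naive lung, Orc1 of the origin recognition complex, at 4.05 against 8.35 CPM (-1.05, -1.39 to -0.71), and 0 in the other 6 comparisons. Of all genes 3.21% were past 2-fold in 14-day over naive lung, so the count of 1 was near that share. The shares for the other comparisons are given above. Of 15 further mitosis genes above the minimum, the kinetochore gene Ndc80 stood at 21.3, 16.9 and 9.44 CPM in naive, 6 h and 14-day lung and at 8.77, 6.84 and 6.32 CPM in the matched blood. Its lung over blood ratios were 1.28, 1.31 and 0.58, past 2-fold in the first 2 libraries, where 3.04% and 2.82% of all genes were past 2-fold higher in lung. Ndc80 (-1.17) and the phosphatase gene Cdc25b (-1.04) were the 2 of the 15 past 2-fold in 14-day over naive lung, both lower, beside 1.77% of all genes lower. The median lung over blood ratio of the 15 was -0.0084, -0.0019 and -0.11.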

How the data were processed

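NK cells were captured in Chromium droplets with hashtag antibodies, and each of the 3 libraries held lung and blood cells. The deposited matrices hold UMI counts per gene and barcode, which the authors made with Cell Ranger (version 7.0.1 in the extract protocol, 7.1.0 in the file headers) on GRCm38.p6, and the authors used Seurat 5.0 downstream. The deposited counts also hold barcodes of at most 100 counts, so they are not limited to called cells. They are neither normalized nor pooled over time points.

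Barcodes with 800 to 5000 genes, at most 6% mitochondrial counts and at least 90% of tag counts from 1 tag were kept, which left out 641 without a single tag, and no doublet caller was run. The tag of each tissue was taken from the order in which the methods name tags and tissues. Counts were summed per library and tissue and scaled to CPM. Intervals are exact Poisson intervals for levels, exact conditional intervals for ratios and exact binomial (Clopper-Pearson) intervals for shares, at 95%. A group at 0 was set to 3 counts for a ratio. Genes with a mean of at least 5 CPM over the 6 groups (9115) were compared by a size of 2-fold, without a test, in 7 comparisons. Lung and blood were also tested over the 3 libraries with edgeR's quasi-likelihood test (TMM, library as a block, Benjamini-Hochberg over all 9115 genes), and each pair of tissues shares its library and time point. Cells were thinned to 3000 UMIs, leaving out shallower ones, for shares at equal depth. Free RNA was bounded from barcodes of at most 100 counts.

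The genes and lists were chosen with earlier results of these data known. All 45 genes may be named, and of each other list in each comparison the 2 highest and the 2 lowest genes by log2 ratio, all NK maturation genes, and the highest single marker of a list. The groups hold 16936897 to 35922737 UMIs, so low genes rest on few counts. Promoter sequences are from RefSeq, and gene positions are of GRCm38. Alternatives were other cell limits, tag shares, totals, TMM factors of edgeR 4.0.16, DESeq2 1.42.0 size factors, removal of free RNA or of cells with markers of other cell types, and other minimums and sizes. The scripts were tested on simulated counts. Python 3.11.15, numpy 2.4.6, scipy 1.17.1, pandas 2.3.3 and R 4.3.3 were used.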

Additional observations from a re-analysis of the deposited data

Results flagged for a closer look

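Some results had opposite signs in lung and blood under the same comparison, with both counting intervals clear of 0. For the summed replication genes at 14 days over naive, the log2 ratio was -0.31 in lung and 0.11 in blood, and lung minus blood was -0.43. Mitosis-high cells held 14.5% of the replication UMIs in 14-day blood and 7.46% in naive blood, and the blood ratio without them is not given. Mcm3 gave -0.42 in lung and 0.29 in blood, a difference of -0.71, and Mcm5 gave -0.31 and 0.31, a difference of -0.61. Stmn1 gave -0.81 and 0.12, a difference of -0.93, and Hmgb2 gave -0.34 and 0.12, a difference of -0.46. At 6 h the summed replication genes gave -0.051 in lung and 0.053 in blood, a difference of -0.10. With 1 library per time point the difference was not tested in any of these cases. Of all genes, 52.3% had an interval below 0 in lung and 15.2% above 0 in blood at 14 days over naive. The share of all genes with both was not computed, so the cases are not read as particular to these genes.

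Several of the blood signs were lost under other settings. In thinned cells the 14-day blood ratio was -0.025 for the replication sum and -0.058 for Stmn1. Without cells that held markers of other cell types it was -0.035 for the replication sum, -0.050 for Stmn1 and -0.026 for Hmgb2. At 6 h the replication sum was 0.019 in lung with TMM factors and -0.026 in blood in thinned cells. Mcm3 and Mcm5 were not recomputed under these settings.

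Barcodes with over 5000 genes were left out of the groups. Of these 72 barcodes, 19 were mitosis-high (26.4%), beside 0.445% of the cells kept. A barcode with more genes reaches at least 5 mitosis genes more readily. Among the cells kept, mitosis-high ones had medians of 4103 to 4542 genes a group, and the others 2458 to 2814. Doublets were not called either, so the higher share is not read as a result about these barcodes. The limit left out these 19 beside 94 kept, and 5 beside 7 in 6 h blood. The mitosis-high shares of the groups thus depend on it.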

How the results depend on the processing

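Time points had 1 library each and were not tested. For lung over blood over the 3 libraries, edgeR with the library as a replicate block called 5 of 19 genes. The calls were 4 with no replicate block, 5 with DESeq2 and the block, and 2 to 11 when 1 library was left out (11 without the 14-day library). Of all 9115 genes, 1234, 706 and 1062 were called higher in lung under the first 3 settings. When 1 library was left out these were 473 to 2759 (2759 without the 14-day library), so the 11 came with more calls among all genes. Of 836 alternative values of ratios, shares and 2-fold counts, 666 stayed within the counting interval of the reported value or within 1.5 times of the reported count, 161 moved outside and 9 turned direction. The higher Cenpa and Kif23 levels in lung than in blood kept their direction in the 3 libraries under the 11 alternatives tried for single genes, with log2 ratios of 1.17 to 1.49 for Cenpa and 0.91 to 1.32 for Kif23, and the lower Mcm4 level in 14-day lung than in naive lung stayed between -0.84 and -0.58. All ratios here are on the log2 scale of CPM. Where a value below moved, the cause was not tested unless the setting itself gives it.

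With TMM factors the summed mitosis log2 ratios were -0.040 for 14-day over naive lung, -0.048 for 14-day over naive blood, -0.069 for 6 h over naive lung, 0.59 for 6 h lung over blood and 0.59 for 14-day lung over blood, and the summed replication ratios were -0.12 for 14-day over naive lung, 0.23 for 14-day over naive blood, 0.019 for 6 h over naive lung, 0.27 for naive lung over blood, 0.21 for 6 h lung over blood and -0.080 for 14-day lung over blood, so the small difference at 6 h in lung turned direction. With DESeq2 size factors the mitosis ratios were -0.084 for 14-day over naive lung, -0.041 for 14-day over naive blood, 0.61 for naive lung over blood, 0.59 for 6 h lung over blood and 0.57 for 14-day lung over blood, and the replication ratios were -0.16 for 14-day over naive lung, 0.24 for 14-day over naive blood, -0.0077 for 6 h over naive lung, 0.30 for naive lung over blood, 0.21 for 6 h lung over blood and -0.10 for 14-day lung over blood. With totals that left out mitochondrial and ribosomal protein genes, the mitosis ratio was -0.077 for 14-day over naive lung and the replication ratios were -0.15 for 14-day over naive lung, 0.19 for 14-day over naive blood and -0.14 for 14-day lung over blood.

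Leaving out cells with 2 or more UMIs of other cell types' markers removed 33.8% to 49.3% of the cells of a group. Trbc2 gave 75.4% to 83.5% of the T cell marker UMIs, while Cd3e was found in at most 0.923% of cells. Pecam1 gave at least 97.2% of the endothelial marker UMIs, while Cdh5 was found in at most 0.0839% of cells. The values below are thus not read as an effect of other cell types. The mitosis ratios then were -0.50 for 14-day over naive lung, 0.17 for 6 h over naive blood, 0.22 for 6 h lung over blood and 0.17 for 14-day lung over blood, and the replication ratios were -0.035 for 14-day over naive blood, 0.17 for naive lung over blood, 0.070 for 6 h lung over blood and -0.13 for 14-day lung over blood, with a turned direction for mitosis genes at 6 h in blood and for replication genes at 14 days in blood. Under the same setting the 14-day over naive ratio in blood turned to -0.050 for Stmn1 and -0.026 for Hmgb2. Mitosis-high shares were 0.247% in naive lung, 0.255% in 6 h lung, 0.105% in 14-day lung and 0.382% in 14-day blood, and replication-high shares were 2.84% in naive blood, 3.97% in 6 h lung, 4.33% in 6 h blood, 2.37% in 14-day lung and 4.68% in 14-day blood.

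With each cell thinned to 3000 UMIs the mitosis ratio was 0.67 for naive lung over blood, and the replication ratios were -0.27 for 14-day over naive lung, -0.025 for 14-day over naive blood, -0.026 for 6 h over naive blood, 0.17 for naive lung over blood and -0.073 for 14-day lung over blood, so both replication differences in blood turned direction, as did Stmn1 at 14 days in blood (-0.058). Thinned mitosis-high shares were 0.139% in naive lung, 0.194% in 6 h lung and 0.291% in 14-day blood, and thinned replication-high shares were 1.09% in naive lung, 0.582% in naive blood, 0.797% in 6 h lung, 0.880% in 6 h blood, 0.509% in 14-day lung and 1.36% in 14-day blood.

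With no upper limit of genes per barcode the mitosis ratios were -0.039 for 6 h over naive lung, 0.40 for naive lung over blood, 0.40 for 6 h lung over blood and 0.34 for 14-day lung over blood, and the replication ratios were 0.19 for 14-day over naive blood, 0.12 for 6 h over naive blood and -0.28 for 14-day lung over blood. Requiring 99% of tag counts from 1 tag gave mitosis ratios of -0.42 for 14-day over naive lung, -0.29 for 6 h over naive lung and 0.72 for naive lung over blood, replication ratios of -0.39 for 14-day over naive lung, -0.12 for 6 h over naive lung and 0.31 for naive lung over blood, and replication-high shares of 5.37% in naive lung, 6.26% in 6 h lung and 7.05% in 6 h blood. Without Cenpa, an alternative chosen after seeing the data, the mitosis ratios were 0.22 for naive lung over blood, 0.19 for 6 h lung over blood and 0.19 for 14-day lung over blood, and without Cenpa, Kif23 and Top2a, also chosen then, they were 0.059 for naive lung over blood, -0.0034 for 6 h lung over blood and 0.055 for 14-day lung over blood.

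A limit of 3 genes in place of 5 gave mitosis-high shares of 2.31% in naive lung, 1.33% in naive blood, 2.31% in 6 h lung, 1.89% in 6 h blood, 2.10% in 14-day lung and 2.08% in 14-day blood, and replication-high shares of 23.7% in naive lung, 24.4% in naive blood, 29.0% in 6 h lung, 30.9% in 6 h blood, 26.04% in 14-day lung and 28.3% in 14-day blood. A limit of 8 genes gave mitosis-high shares of 0.342% in 6 h lung and 0.338% in 14-day blood, and replication-high shares of 1.14% in naive lung, 1.01% in naive blood, 1.496% in 6 h lung, 1.78% in 6 h blood, 0.867% in 14-day lung and 2.13% in 14-day blood.

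The number of members past the fold followed the settings that define it. The share of all genes was not computed at these other settings, so the counts are not read as a result about the members. Without a minimum of CPM it was 1 for 14-day over naive lung (Cdc6), 4 for 14-day over naive blood (Cdc6, Cenpf, Kif20a and Hmmr), 1 for 6 h over naive blood (Ccnb1), 4 for naive lung over blood (Cenpa, Kif23, Bub1 and Ccnb2) and 5 for 14-day lung over blood (Cenpa, Kif23, Cdc6, Bub1b and Hmmr). With a minimum of 20 CPM Cenpa, 1 member, passed in each lung over blood comparison. A size of 1.5-fold gave 3 members for 14-day over naive lung (Mcm4, Stmn1 and Prc1), 1 for 14-day over naive blood (Pclaf) and 4 for 14-day lung over blood (Cenpa, Kif23, Mcm3 and Pclaf). With no upper limit of genes it was 1 for 14-day over naive blood (Pclaf) and 1 for naive lung over blood (Cenpa), and in thinned cells 1 for 14-day lung over blood (Cenpa). Low counts limited most mitosis genes, of which 21 of 26 had a mean under 5 CPM.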

Other observations

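Genes that act before replication differed in other ways. Of 10 genes of G1 and S phase entry above the minimum, Myc, a driver of cell growth, was past 2-fold higher in 14-day than in naive lung, at 41.2 against 16.9 CPM (log2 of 1.28, 1.12 to 1.45), and the D-type cyclin gene Ccnd2 was lower (-0.58). In that comparison 1.45% of all genes were past 2-fold higher. E2f2 was lower in lung than in blood, at -1.07, -0.60 and -1.17 in naive, 6 h and 14-day mice. Of 12 inhibitors of the cell cycle and quiescence genes above the minimum, 3, 4 and 2 were past 2-fold higher in lung than in blood in the same order, and 0 were lower. Of all genes 3.04%, 2.82% and 2.56% were higher and 0.691%, 0.549% and 0.56% lower. Tissue and handling cannot be told apart for these genes either. Cdkn1a, the gene of the inhibitor p21, gave 1.56, 1.21 and 0.92, and the antiproliferative genes Btg2 and Btg1 gave 1.45, 1.57 and 1.14 and 1.12, 1.14 and 1.18. Klf2, a quiescence factor of lymphocytes, was lower in 14-day than in naive lung (-1.28, -1.31 to -1.25), as was Foxo1 (-0.95).

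Inside mitosis-high cells the E2F genes were high, with E2f8 at 9.33 and E2f7 at 7.85 against the other cells on the log2 scale. Ccnd2 stood at 328 CPM inside and 748 CPM outside and Ccnd3 at a log2 ratio of -1.11. Among the inhibitors Btg1 (-1.26) and Cdkn1b (-1.12) were lower and Cdkn1a (1.63) was higher inside. These genes did not enter the choice of the cells, and the values are pooled over 6 groups with no test.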
